A study of Mus musculus with 11 samples.

Results

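Osteopontin, the product of Spp1, and the genes of its main receptors, Cd44, Itgav, Itgb1, Itgb3 and Itgb5, were followed through cortex after a small stroke. These are 6 of the 22377 genes of the deposited table, and each is present once. The family was taken by name, but it was chosen by the measured levels of Spp1 and Cd44, which earlier results of these data showed to be high on the infarcted side and lower at the later times, so for these genes the differences between sides, over time and from naive on the infarcted side are given as a description, with no test.

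Osteopontin is a secreted, heavily phosphorylated matrix protein and cytokine. It binds integrins through an arginine-glycine-aspartate motif and also binds the hyaluronan receptor CD44. In brain it is best known from phagocytic microglia and infiltrating macrophages in and around ischaemic lesions. Its integrin receptors are pairs in which the αv chain (Itgav) is joined to β1 (Itgb1), β3 (Itgb3) or β5 (Itgb5). The β1 chain also pairs with many other α chains.

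The libraries were made by cap analysis of gene expression (CAGE), which counts short tags at the capped 5′ ends of transcripts, from whole cortex of male C57BL/6N mice. Stroke was made by photothrombosis, in which intravenous rose bengal at 35 mg/kg is activated by a 565 nm LED (200 mW, 30 min, a circle of 3.5 mm) over the left parietal cortex. There were 11 libraries, 1 for each group. The naive library came from mice without stroke. The other 10 were the infarcted (left) and the non-infarcted side at 7 d, at 7 d with levetiracetam (LEV, an antiseizure drug that binds SV2A, given at 5 mg/mL in drinking water), at 1 m, at 1 m with LEV, and at 2 m after 2 weeks of LEV withdrawal. All groups share the strain and sex. Ages of 8 to 10 and 65 to 85 weeks are given for the study but not by library, and the labels do not say how many mice stand behind a library or whether the 2 sides came from the same mice. No 2 m library without LEV is among them.

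Library totals ran from 12928291 to 21000367 tags, and values are in CPM, tags scaled to a fixed library total. Summed markers of neurons, 6 of 6 of which were measured, lay at 5523 CPM in the naive library, 4398 to 5813 CPM on the infarcted side and 5002 to 6928 CPM on the non-infarcted side. In bulk cortex, fewer cells of a type and less RNA per cell cannot be told apart.

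Spp1 (ENSMUSG00000029304.14) lies on chromosome 5, 104435118 to 104441050, plus strand (GRCm38, GENCODE M21). Cd44 (ENSMUSG00000005087.17) lies on chromosome 2, 102811141 to 102901665, minus strand, and Itgav (ENSMUSG00000027087.11) on the same chromosome, 83724397 to 83806916, plus strand. The β chain genes are all on the plus strand. Itgb1 (ENSMUSG00000025809.15) is at 128685654 to 128733200 of chromosome 8, Itgb3 (ENSMUSG00000020689.4) at 104608000 to 104670476 of chromosome 11 and Itgb5 (ENSMUSG00000022817.15) at 33829665 to 33949338 of chromosome 16.

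CAGE tags mark transcript starts, so the 250 bases before the RefSeq start (GRCm38.p6) are shown for the 3 members with the widest range of levels between libraries. They are chr5:104434861-104435110 (plus strand) for Spp1, chr2:102901666-102901915 (minus strand) for Cd44 and chr16:33829415-33829664 (plus strand) for Itgb5. Capitals mark matches to the motifs searched on both strands.
Spp1: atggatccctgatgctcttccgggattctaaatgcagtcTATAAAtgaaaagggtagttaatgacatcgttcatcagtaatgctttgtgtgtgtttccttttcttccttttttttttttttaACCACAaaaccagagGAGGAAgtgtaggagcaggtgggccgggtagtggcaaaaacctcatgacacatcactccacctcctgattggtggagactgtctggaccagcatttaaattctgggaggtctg
Cd44: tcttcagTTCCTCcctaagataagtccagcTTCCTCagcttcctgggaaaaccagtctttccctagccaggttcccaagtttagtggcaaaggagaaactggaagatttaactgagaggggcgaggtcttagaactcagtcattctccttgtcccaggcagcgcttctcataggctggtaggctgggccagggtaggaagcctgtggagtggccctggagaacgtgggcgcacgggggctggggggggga
Itgb5: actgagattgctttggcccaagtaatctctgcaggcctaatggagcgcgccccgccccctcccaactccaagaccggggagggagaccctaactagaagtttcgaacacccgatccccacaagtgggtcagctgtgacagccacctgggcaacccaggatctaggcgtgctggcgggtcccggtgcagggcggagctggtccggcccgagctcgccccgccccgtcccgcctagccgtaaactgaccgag

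The motifs were the AP-1 site TGAGTCA, the core of the PU.1 site GAGGAA, the RUNX core TGTGGT, the E-box CACGTG and the TATA box TATAAA, and no match of one overlapped another. In the Spp1 window TATAAA lay at -211 to -206, counted from the start, a reverse RUNX core (ACCACA) at -128 to -123 and GAGGAA at -113 to -108. In the Cd44 window the reverse PU.1 core TTCCTC occurred at -243 to -238 and at -220 to -215. The Itgb5 window held no match. Among windows of this length before the starts of all 32851 entries, 23.3% held the PU.1 core, 14% the RUNX core, 12.4% the TATA box, 6.02% the E-box and 4.46% the AP-1 site. The GC content was 43.6% for Spp1, 56.4% for Cd44 and 65.2% for Itgb5, beside a mean of 53.2% over all entries. Of the 6 members, 5 had an entry. The windows of Itgav and Itgb1 held the PU.1 core too, and no member's window held the AP-1 site or the E-box.

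RefSeq gives Spp1 a second start 1074 bases into the GENCODE gene. Most Spp1 tags cannot be assigned to 1 annotated gene, because Gm42793, a provisional 1252-base gene model on the same strand that starts 3 bases inside Spp1 and spans that second start, holds 98.2% to 100% of the Spp1 count in each library. Over all libraries Gm42793 had 14470 tags and Spp1 14570. Both rows are therefore treated here as 1 signal, and Gm42793 was left out of the ranks below.

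Spp1 was low in the naive cortex and on the non-infarcted side and very high on the infarcted side at 7 d. Its level was 5.65 CPM in the naive library. The infarcted side held 303 CPM at 7 d and 456 CPM at 7 d with LEV, then 26.0 CPM at 1 m, 17.7 CPM at 1 m with LEV and 21.5 CPM at 2 m. On the non-infarcted side it was 6.17, 5.10, 5.01, 5.33 and 7.59 CPM in the same order. All 5 infarcted libraries lay above all 5 non-infarcted ones and the naive one. Within the infarcted side both 7 d libraries stood far above the later 3. Neighbours in the order from 7 d with LEV down to the 1 m library with LEV all differed beyond counting error, while the non-infarcted 2 m library, next in that order, did not differ from the non-infarcted 7 d library beyond it, nor did the latter from naive.

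**Figure D1:**
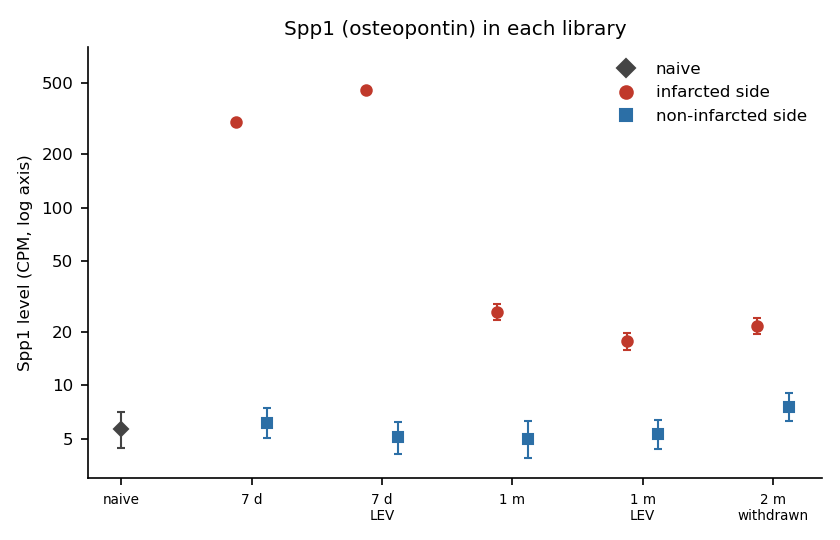
Spp1 level in CPM (log axis) in each of the 11 libraries, by state, with exact 95% intervals that cover counting error only. The infarcted libraries go from 303 and 456 CPM at 7 d to between 17.7 and 26.0 CPM later, and all non-infarcted libraries stay between 5.01 and 7.59 CPM.

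As a ratio of single libraries, Spp1 on the infarcted side was 49.1 times the other side at 7 d (exact 95% interval on tags 40.7 to 59.8, as for all ratios below, covering counting error only). It was 89.4 times (73.1 to 110.5) at 7 d with LEV. The ratio was 5.19 (4.0 to 6.81) at 1 m, 3.32 (2.67 to 4.15) at 1 m with LEV and 2.84 (2.31 to 3.50) at 2 m. By log2 difference of CPM + 1, Spp1 ranked 3 of 16292 genes at 7 d and 1 of 16272 at 7 d with LEV, and 41, 11 and 116 at the later states. For scale, 12.4%, 13.3%, 8.29%, 3.73% and 11.1% of genes were at least 1.5-fold higher on the infarcted side in the 5 states. The mean log2 difference over the 5 states was 3.35 (SD over states 2.29), with values from 1.39 to 6.23.

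Cd44, the transmembrane hyaluronan receptor that also binds osteopontin, was higher on the infarcted side in each state and varied less. Its level was 1.86 CPM in the naive library. Infarcted libraries held 17.2 CPM at 7 d, 16.5 CPM at 7 d with LEV, 9.48 CPM at 1 m, 5.41 CPM at 1 m with LEV and 10.4 CPM at 2 m. Non-infarcted libraries held 4.0, 3.51, 2.76, 2.29 and 2.61 CPM, so the sides did not overlap. The side ratio was 4.31 (3.32 to 5.66), 4.69 (3.58 to 6.23), 3.43 (2.38 to 5.07), 2.37 (1.67 to 3.41) and 3.97 (2.84 to 5.68) in the same order. Unlike that of Spp1, the Cd44 ratio at 2 m was close to that at 7 d, and the intervals overlapped. The mean log2 difference was 1.58 (SD over states 0.39).

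Itgav, the α chain shared by the integrin receptors, had the narrowest range of the 6 members. It was 59.3 CPM in the naive library. Infarcted libraries gave, in the order of states above, 77.4, 82.2, 59.2, 60.6 and 75.5 CPM. The other side gave 76.1, 66.1, 62.9, 66.5 and 67.4 CPM. The sides overlapped, and the highest library was 1.39 times the lowest. The side ratio ran from 0.911 to 1.24. By limma, a moderated linear model fitted on all genes, the log2 side difference was 0.06 (SE 0.08, adjusted p = 0.711). It was not called.

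The β chains differed in size and course. Itgb5, which pairs with αv, was 20.8 CPM in the naive library. Its infarcted libraries held 85.5 and 84.2 CPM at 7 d without and with LEV, 35.2 and 22.8 CPM at 1 m, and 39.7 CPM at 2 m. Its non-infarcted libraries held 28.9, 27.4, 21.7, 19.0 and 34.8 CPM. The infarcted side was higher within each state, with ratios of 2.96, 3.07, 1.62, 1.2 and 1.14, but the sides overlapped across states.

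Itgb1, the most widely shared β chain, was 47.5 CPM in the naive library. Its infarcted libraries held 112 and 119 CPM at 7 d without and with LEV, 60.6 and 44.6 CPM at 1 m, and 62.1 CPM at 2 m. Its non-infarcted libraries held 55.7, 59.5, 53.0, 36.9 and 55.5 CPM. The 7 d libraries of the infarcted side stood apart, with side ratios of 2.01 and 2.00, and later ratios were 1.14, 1.21 and 1.12.

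Itgb3, the β chain of the vitronectin receptor, best known from platelets and osteoclasts, had the lowest mean over the 11 libraries, although Cd44 was below it in the naive and all 5 non-infarcted libraries. It was 5.72 CPM in the naive library. Infarcted libraries held 6.03, 5.27, 3.30, 3.07 and 3.36 CPM, and those of the other side 4.67, 3.62, 3.12, 3.38 and 4.13 CPM. The side ratio exceeded 1 beyond counting error in 1 of 5 states, 7 d with LEV (1.46, 1.05 to 2.03).

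**Figure D2:**
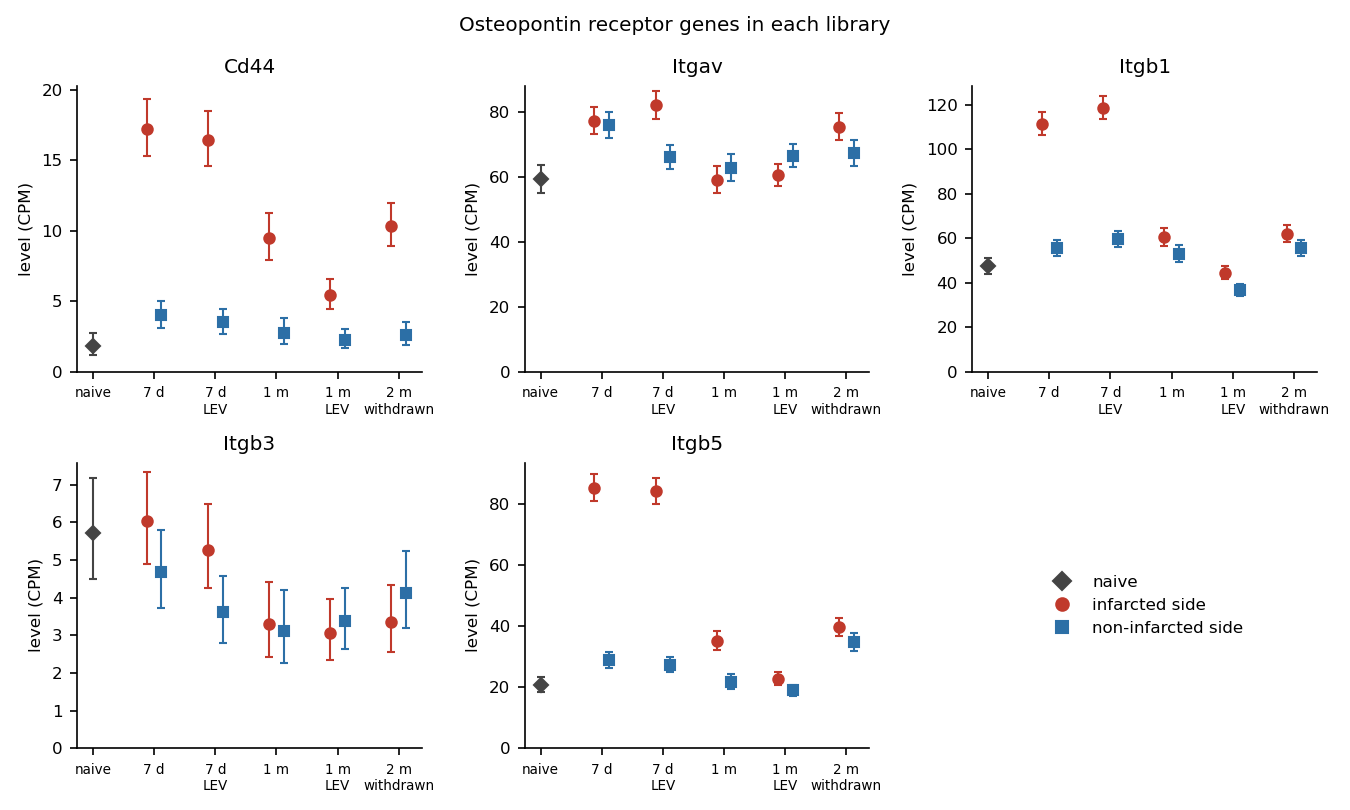
Level in CPM of the 5 receptor genes in each library, by state and side, with exact 95% intervals that cover counting error only; each panel has its own axis from 0. Cd44, Itgb1 and Itgb5 are highest in the 7 d infarcted libraries (Itgb5 at 85.5 and 84.2 CPM), while Itgav stays between 59.2 and 82.2 CPM.

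Over the 5 states, limma called the side difference of 1 of the 4 integrin genes at an adjusted p below 0.05, as did edgeR's quasi-likelihood test on recovered tags. Of all 16229 genes tested 7.00% were called in either direction and 6.21% were called higher on the infarcted side. Itgb5 rose on the infarcted side by a log2 difference of 0.84 (SE 0.21, limma adjusted p = 0.0447, higher in 5 of 5 states). Its call was lost in 7 of 12 alternatives, whose adjusted p ran from 0.0241 to 0.259. It was lost on leaving out the 7 d state (adjusted p = 0.148 by limma), the 7 d state with LEV (0.161) or the 1 m state (0.113). Itgb1 had a log2 difference of 0.52 (SE 0.14, limma adjusted p = 0.0572, higher in 5 of 5 states) and was called only on leaving out the 2 m state (0.0422). Itgb3 had 0.10 (SE 0.12, limma adjusted p = 0.703).

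**Figure D3:**
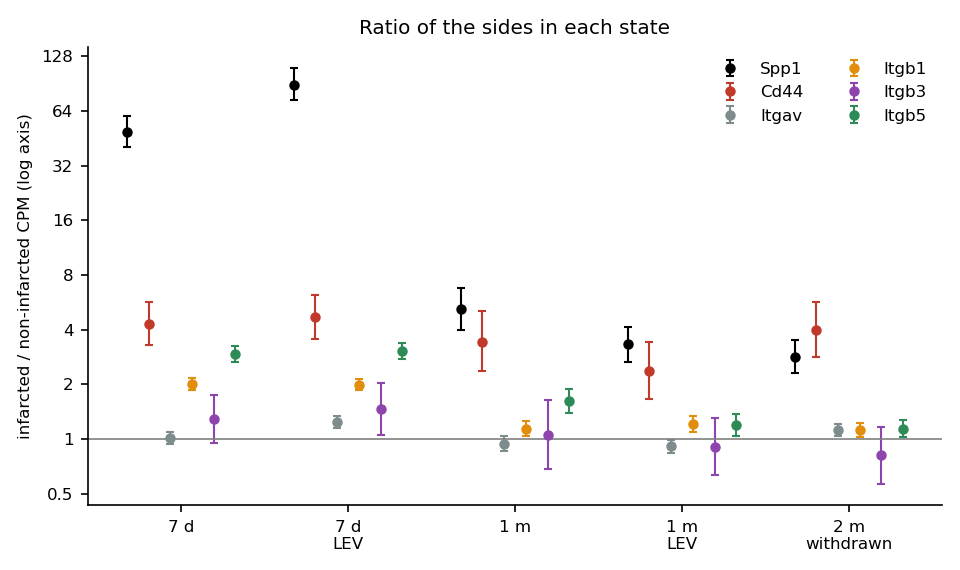
Ratio of the infarcted to the non-infarcted library for each member in each state (log axis), with exact 95% intervals on tags. Spp1 reaches 89.4 at 7 d with LEV, Cd44 lies between 2.37 and 4.69 in every state, and Itgav lies near 1.

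The makeup of the β chain signal differed between libraries. As a share of the tags of Itgb1, Itgb3 and Itgb5, Itgb5 made up 28.1% (95% Clopper-Pearson interval 25.3 to 31.1) in the naive library. It made up 42.1% (40.4 to 43.8) at 7 d and 40.4% (38.8 to 42.1) at 7 d with LEV on the infarcted side. On the non-infarcted side the share was 32.4% (30.1 to 34.8) and 30.3% (28.1 to 32.5) in those states. At 1 m the intervals of the sides did not overlap, with 35.5% (33.0 to 38.1) on the infarcted and 27.9% (25.2 to 30.7) on the non-infarcted side. They overlapped at 1 m with LEV, 32.3% (29.8 to 34.9) and 32% (29.4 to 34.7), and at 2 m, 37.8% (35.6 to 40.0) and 36.8% (34.4 to 39.3). Itgb5 had 3.64 times the CPM of Itgb3 in the naive library and 14.2 and 16.0 times at 7 d on the infarcted side, beside 6.19 and 7.59 times on the other. Tags are counted at 5′ ends, 1 per transcript end, so these ratios do not scale with transcript length.

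Between 7 d and 1 m, all members were lower on the infarcted side in both pairs of libraries, with and without LEV. Spp1 was 11.7-fold lower at 1 m than at 7 d, and 25.8-fold lower with LEV. Cd44 was 1.82-fold and 3.04-fold lower. The mean log2 difference, 1 m minus 7 d, was -4.05 for Spp1 and -1.12 for Cd44, given without a test. Spp1 ranked 5 from the bottom of 16398 genes.

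All 4 integrin genes fell by limma with LEV as a second factor, where 11.4% of 16399 genes were called lower and 16.7% in either direction. Itgb5 fell by 1.55 on the log2 scale (SE 0.15, adjusted p = 3.01e-11, limma) and Itgb1 by 1.13 (SE 0.14, adjusted p = 3.31e-08). Itgb3 fell by 0.67 (SE 0.21, adjusted p = 0.0247) and Itgav by 0.41 (SE 0.14, adjusted p = 0.0373). The last 2 calls were lost in some alternatives, Itgav under median centring (adjusted p = 0.0902), TMM factors (0.0772) and no second factor (0.0726), and Itgb3 with no expression limit (0.0635) and no second factor (0.0543). This fit has 1 residual degree of freedom and takes nearly all of its spread from other genes (45.3 prior degrees of freedom).

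The side difference itself shrank between 7 d and 1 m for 2 of the 4 integrin genes, against 5.23% of 16228 genes called lower and 5.47% in either direction. It fell by 1.10 on the log2 scale for Itgb5 (SE 0.17, limma adjusted p = 8.92e-07) and by 0.76 for Itgb1 (SE 0.14, limma adjusted p = 0.000112), and both calls held in 5 of 5 alternatives. For Itgav it was -0.28 (limma adjusted p = 0.344) and for Itgb3 -0.40 (limma adjusted p = 0.516). For Spp1 it was -3.95 and for Cd44 -0.69, without a test. The changes without and with LEV were -0.86 and -1.33 for Itgb5 and -0.80 and -0.72 for Itgb1. This fit has 1 residual degree of freedom and takes nearly all of its spread from other genes (64.4 prior degrees of freedom). The alternatives share that 1 residual degree of freedom, and edgeR was not run on this difference.

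Cell type markers moved along with these differences. Summed microglia markers (6 of 6 measured) were 331 CPM in the naive library, 528 to 1355 CPM on the infarcted side and 319 to 385 CPM on the other, with none at 0 in every library. Summed macrophage markers (6 of 6) were 6.34 CPM in the naive library, where Ccr2 and Ly6c2 were at 0. They were 11.7 to 77.3 CPM on the infarcted side and 5.08 to 9.67 CPM on the other. Ms4a7 held most of that sum in each infarcted library, with 69.1 CPM at 7 d without LEV beside 2.01 CPM in naive. In those libraries Mrc1 was 5.00 and 1.86 CPM, Cd163 2.17 and 1.62, Ccr2 0.301 and 0, and Ly6c2 0.422 and 0. Lyve1 went the other way, with 0.241 and 0.851 CPM. The ratios of this sum given below rest mainly on Ms4a7. Summed mural cell and fibroblast markers (6 of 6) were 135 CPM in the naive library, 137 to 1104 CPM on the infarcted side and 112 to 191 CPM on the other.

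From 7 d to 1 m on the infarcted side, summed microglia markers went down 2.56-fold without and 2.43-fold with LEV. Those of macrophages went down 2.16-fold and 5.56-fold, and those of mural cells and fibroblasts 2.78-fold and 8.03-fold. The matching ratios of Spp1, 11.7 and 25.8, were larger than those of each of these sums. Astrocyte markers (6 of 6), 877 CPM in the naive library, 1175 to 1816 CPM on the infarcted side and 791 to 1290 CPM on the other, went down 1.36-fold and 1.22-fold. The part of these cell types in the levels of the 6 members was not tested.

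**Figure D4:**
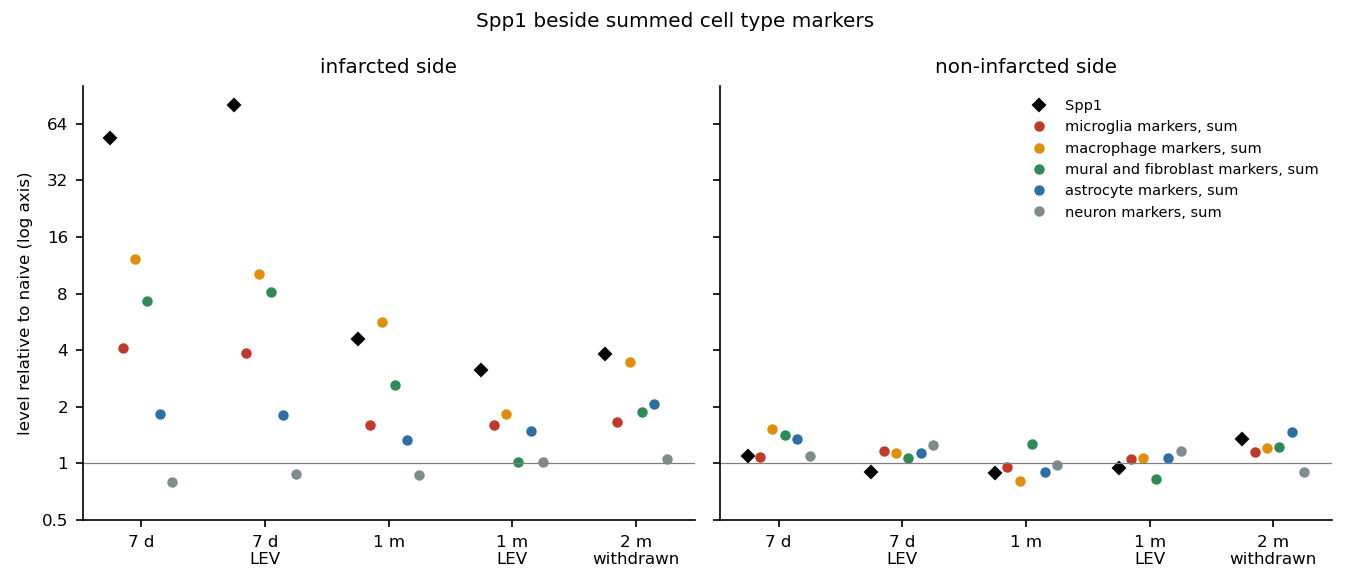
Level relative to the naive library (log axis) of Spp1 and of the summed markers of 5 cell types, for each state, infarcted side on the left and non-infarcted on the right. On the infarcted side Spp1 is 53.7 and 80.8 times naive at 7 d, above every marker sum, and 3.13 to 4.60 times naive later.

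Spp1 and Itgb3 are also known from bone and platelets. Of 6 bone markers 5 were measured, with a sum of 12.8 CPM in the naive library, 7.50 to 27.0 CPM on the infarcted side and 6.37 to 15.3 CPM on the other. Of the 27.0 CPM, at 7 d without LEV, Ctsk held 10.4, Alpl 7.59, Acp5 6.45, Bglap 2.11 and Sp7 0.422 CPM. In naive they were 2.09, 8.66, 0.928, 0.773 and 0.387 CPM. Of 5 platelet and megakaryocyte markers 3 were measured, with sums of 9.28 CPM, 10.6 to 40.8 CPM and 9.06 to 12.1 CPM. Of the 40.8 CPM, at 7 d without LEV, Pf4 alone held 34.9 CPM (5.26 CPM in naive). Itga2b was 5.91 CPM there (3.94 CPM in naive) and Gp9 was at 0 (0.0773 CPM in naive). Neutrophil markers (3 of 4) summed to 11.2 CPM in the naive library, 12.4 to 66.3 CPM on the infarcted side and 6.92 to 119 CPM on the other. The 119 CPM was the non-infarcted 7 d library without LEV, and the rest of that side lay at 6.92 to 17.6 CPM. T cell markers (3 of 3) summed to 0.773 CPM, 0.521 to 7.40 CPM and 0.111 to 0.546 CPM. Their part in the members' levels was not tested.

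LEV was compared within 7 d and within 1 m, and Spp1 differed in opposite directions. At 7 d on the infarcted side Spp1 with LEV was 1.5 times its level without (1.45 to 1.56), rank 137 of 16433 genes, with 2.61% of genes at least 1.5-fold higher. At 1 m it was 0.681 times (0.585 to 0.792). On the non-infarcted side the ratio was 0.827 and 1.06, and both intervals held 1.

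For the other 5 members the interval at 7 d on the infarcted side held 1. Cd44 with LEV was 0.955 times its level without at 7 d and 0.571 times (0.437 to 0.744) at 1 m. Itgb5 was 0.985 times at 7 d and 0.647 times (0.567 to 0.737) at 1 m. Itgb1 was 1.06 times at 7 d and 0.736 times (0.669 to 0.811) at 1 m, but was also lower at 1 m on the non-infarcted side, 0.695 times (0.628 to 0.770). Itgav was 1.06 and 1.02 times and Itgb3 0.875 and 0.930 times, with intervals that held 1. At 1 m 7.70% of genes were at least 1.5-fold lower with LEV on the infarcted side, and of the members Cd44 and Itgb5 passed that size. In the same pair of libraries macrophage markers were 0.325 times, mural cell and fibroblast markers 0.388 times and microglia markers 0.998 times, and their part in it was not tested.

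**Figure D5:**
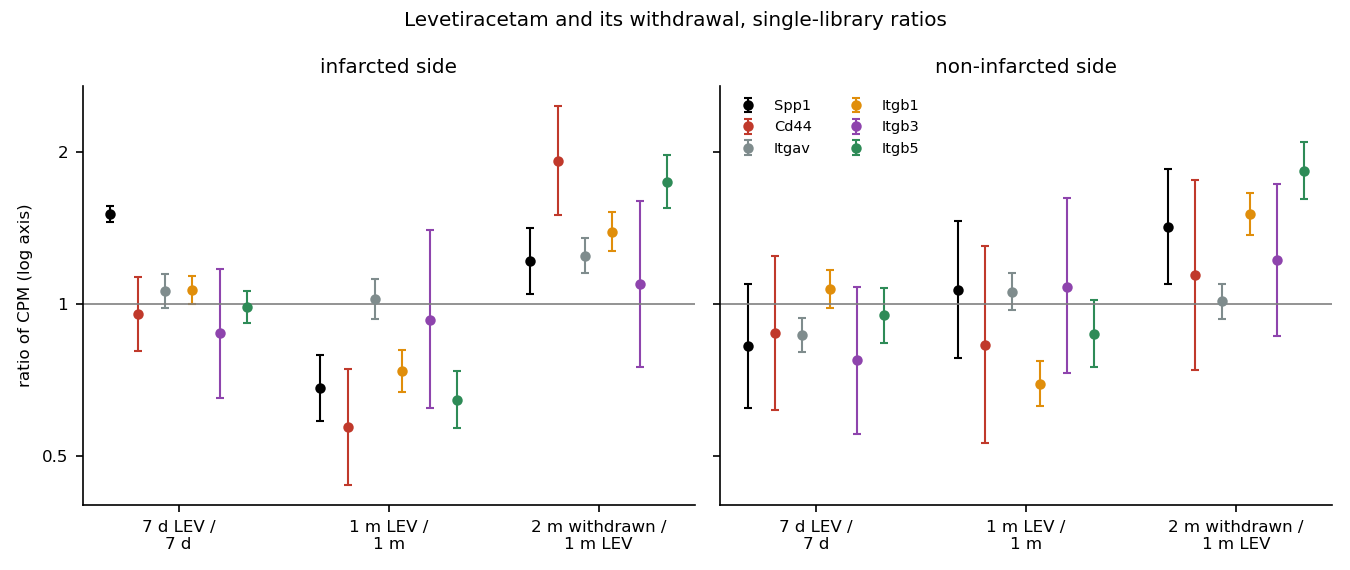
Ratios of single libraries for each member on each side (log axis), with exact 95% intervals on tags. They are the library with LEV to that without at 7 d and at 1 m, and the 2 m library after withdrawal to the 1 m library with LEV. On the infarcted side Spp1 lies at 1.5 at 7 d and 0.681 at 1 m, and Cd44 (0.571), Itgb5 (0.647) and Itgb1 (0.736) lie below 1 at 1 m.

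Across both times limma called a LEV difference on the infarcted side for 0 of 6 members, against 0.518% of 16399 genes. The unadjusted p was below 0.05 for 1 of 6, Itgb5, and edgeR called 0 of the 4 integrin genes. The log2 difference of Spp1 was 0.03 (limma adjusted p = 0.986), a mean over opposite signs. It was -0.39 for Cd44 (limma adjusted p = 0.609) and -0.31 for Itgb5 (limma adjusted p = 0.571).

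The 2 m libraries after withdrawal were set against those of 1 m on LEV, where time and withdrawal cannot be told apart. On the infarcted side Cd44 was 1.92 times (1.5 to 2.46), Itgb5 1.75 times (1.55 to 1.97) and Itgb1 1.39 times (1.27 to 1.52). Spp1 was 1.22 times (1.05 to 1.41) and Itgav 1.25 times (1.15 to 1.35), while the interval of Itgb3 held 1 (1.09 times, 0.750 to 1.60). In the same pair summed markers of macrophages were 1.89 times, of mural cells and fibroblasts 1.84 times and of bone 2.66 times. Those of oligodendrocytes were 1.44 times, of astrocytes 1.40 times and of microglia 1.04 times. The bone sum changed mainly through Ctsk (2.03 to 8.09 CPM), Alpl (4.89 to 8.49) and Acp5 (0.156 to 2.34). Bglap (0.208 to 0.456 CPM) and Sp7 (0.208 to 0.570) stayed low. The part of these cell types in the members' levels was not tested. Of all genes 15.1% were at least 1.5-fold higher on the infarcted side, and 12.9% on the non-infarcted side. On that side Itgb5 (1.84 times) and Itgb1 (1.51 times) were higher to a similar extent, and Spp1 was 1.42 times (1.09 to 1.85).

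Set against the single naive library, Spp1 on the infarcted side was 53.7, 80.8, 4.60, 3.13 and 3.82 times naive in the order of states above, and Cd44 9.29, 8.86, 5.11, 2.92 and 5.59 times. On the non-infarcted side all 5 Spp1 intervals held 1, with ratios of 0.887 to 1.34. Cd44 there exceeded naive at 7 d (2.16 times) and at 7 d with LEV (1.89 times), and its other 3 intervals held 1. Itgb3 went the other way: 6 of 10 libraries lay below naive beyond counting error, 3 on each side, and 0 above, with ratios as low as 0.537.

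Averaged over states, limma called 0 of the 4 integrin genes on the infarcted side against naive, beside 0.00611% of 16367 genes, with 0 at an unadjusted p below 0.05 and 0 by edgeR. On the non-infarcted side it called 0 of 6 members, beside 0.00% of 15983 genes, with 0 at an unadjusted p below 0.05, and edgeR called 0 genes. The lone naive library is assumed to vary like the others in these fits.

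Among the genes whose log2(CPM + 1) pattern over the 11 libraries was most like that of Spp1 by Pearson's r, of 16221 genes, were Grn (progranulin, 0.994), Fcgr1 (a high-affinity IgG receptor, 0.990), Renbp (0.986), Milr1 (0.986), Ms4a6c (0.986), Igsf6 (0.984), Bst2 (tetherin, 0.984), Dse (0.984) and Pyroxd2 (0.984). Most alike to Cd44 were Zc3hav1 (0.982), Apobec3 (0.981), Gpnmb (0.981), Irf5 (0.980) and Myo1f (0.978). For Itgb5 they were Bgn (biglycan, 0.992), Lgals9 (0.990), Tpm4 (0.990), Serpinb6a (0.989) and Rcn3 (0.988), and for Itgb1 Gyg (0.976), Col6a2 (0.974), Rgs10 (0.971), Ifi35 (0.969) and Angptl2 (0.969). Among the closest to Itgav were 9530082P21Rik (0.941), Suclg2 (0.935), Calhm5 (0.927) and Ifit1 (0.903), and to Itgb3 Six4 (0.903), Robo4 (0.858), Cdkn3 (0.842), Gm15569 (0.837) and Plekha4 (0.834). Between members r was 0.966 for Itgb1 with Itgb5, 0.929 for Spp1 with Itgb5, 0.913 for Spp1 with Cd44 and 0.501 for Spp1 with Itgb3. These are descriptions over the same libraries, which share side, time and depth.

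Of 6 further osteopontin-binding integrin chains 5 were tested, and 1 was called higher on the infarcted side, Itga5 (log2 1.09, limma adjusted p = 0.0181), the α chain of the fibronectin receptor. The median of the 5 was 0.17, beside 0.01 over all genes. Itga5 also fell from 7 d to 1 m by 0.90. Itga4 (0.34), Itgb8 (0.17) and Itga8 (-0.05) were not called by side. Of all genes 6.21% were called higher by side and 11.4% lower from 7 d to 1 m.

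Of 8 enzymes listed as cutting or cross-linking osteopontin 4 were tested by side, and 2 rose on the infarcted side. These were Mmp12, macrophage metalloelastase (log2 4.0, limma adjusted p = 0.0102), and Mmp3, stromelysin (2.74, limma adjusted p = 0.0175). Both passed the expression limit only through their infarcted libraries, so an upward difference was fixed by the limit. Mmp12 was 72.9, 34.2, 12.9, 1.09 and 41.8 CPM on the infarcted side in the order of states above, and 0.0726 to 0.445 CPM on the other. Mmp3 was 6.99, 14.1, 23.8, 0.729 and 3.19 CPM on the infarcted side, highest at 1 m without LEV, and 0 to 0.286 CPM on the other. Plau, urokinase (1.12, limma adjusted p = 0.0570), and Tgm2, transglutaminase (0.43), were not called. From 7 d to 1 m Mmp12 fell by 3.24 and Plau by 1.77. Over all genes 6.21% were called higher by side, 11.4% lower over time and 0.518% in either direction for LEV. Mmp12 was also lower with LEV on the infarcted side (log2 -1.90), 1 of 4 tested. That call was lost with TMM factors and without the second factor, where limma called 0 genes (smallest adjusted p = 0.119 and 1.00). Of 4 further genes of the Spp1 family 2 were in the table, and neither reached the level to be tested.

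Of 11 names of other αv ligands 9 were in the table and tested, and 1 rose on the infarcted side, Tgfb1 (log2 1.22, limma adjusted p = 0.0186), whose latent form αv integrins activate. The most abundant were Fn1, fibronectin (1.35, limma adjusted p = 0.0550), Mfge8, a bridge for phagocytosis (0.45), Vtn, vitronectin (0.41), and Edil3 (-0.07), none of them called. From 7 d to 1 m 4 of 9 fell, Postn by 2.53, Fn1 by 1.68, Tnc by 1.68 and Tgfb1 by 1.16. The median over the 9 was 0.41 by side and -0.0046 over time, beside -0.04 over time for all genes. Calls over all genes were 6.21% higher by side and 11.4% lower over time.

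For CD44, 10 of 13 genes of hyaluronan handling and CD44 anchoring were tested by side, and 3 rose: Mmp14, which sheds CD44 (log2 1.37, limma adjusted p = 0.0280), Srgn, the proteoglycan serglycin (1.13, limma adjusted p = 0.0287), and Msn, moesin, which ties CD44 to actin (1.07, limma adjusted p = 0.0148). The more abundant Adam10 (0.12), Nf2 (0.02), Rdx (0.19) and Ezr (0.18) were not called. From 7 d to 1 m 6 of 11 fell, with Srgn, Mmp14 and Msn at -1.47, -1.45 and -1.41. Has2, 1 of the 6, was 1.39 and 1.62 CPM at 7 d without and with LEV on the infarcted side. At 1 m it was 0.718 and 0.364 CPM. It passed the expression limit only through its 7 d libraries, so its fall was fixed by the limit. The median by side was 0.15. Shares called over all genes were 6.21% higher by side and 11.4% lower over time.

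Of 15 integrin adaptors and kinases 13 were tested by side, and 1 was called, Fermt3, the kindlin of blood cells (log2 1.09, limma adjusted p = 0.0109), which also fell by 1.57 over time. For scale, 6.21% of all genes were called higher by side and 11.4% lower over time. The focal adhesion kinases Ptk2b (-0.12) and Ptk2 (-0.07), the actin linker Tln1 (0.03) and Ilk (0.14) were not called, and the median was 0.08. Of 5 leukocyte integrin chains 3 were tested, and Itgb2 (1.87) and Itgam (1.06) were called higher. Itgax (1.15) passed the threshold too but is not counted. At 0.106 to 0.607 CPM on the non-infarcted side, it passed the expression limit only through its infarcted libraries (1.15 to 2.28 CPM). Its difference was therefore bound to be upward. Itgal and Itgb7 were too low to test.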

How the data were processed

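CAGE tags were counted in 11 whole-cortex libraries, 1 per group, grouped by the labels. The deposited values are CPM, scaled by the authors to the total of each library, for 22377 genes. The submitters' processing notes list, without saying what each did, HISAT2 2.0.5, BWA 0.7.17, the build GRCm38 and DESeq2 1.20.0. The study's text gives another LEV schedule (2 weeks of treatment, 1 week of withdrawal), and the labels were followed. All values lie within 0.01 of a whole tag, so tags were recovered, and 3 tags are 0.143 to 0.232 CPM. Identifiers were matched to GENCODE M21, 22335 without version.

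Log2(CPM + 1) was fitted for genes averaging 1 CPM or more with limma 3.58.1 (trend) in R 4.3.3, with Benjamini-Hochberg adjustment over all genes and a threshold of 0.05. The side fit has state as a factor, and the time and LEV fits have each other as a factor. States serve as repeats, so p-values measure the spread between these libraries only, which may be technical. In the time, LEV and side-difference fits, with 1 residual degree of freedom, that spread is taken mostly from other genes. Ratios of libraries have exact 95% conditional binomial intervals on tags, covering counting error only. Genes were ranked without those that share tags with the member. The fits were also run on simulated counts with the same relative spread for all genes. Differences between states beyond the contrast were not simulated, so that run does not show how the fits perform on these libraries.

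The members, gene lists, motifs and tests were chosen with earlier results of these data known. Named genes are the members, the 4 most abundant measured genes of each list, the 10 genes most like Spp1 and 5 most like each other member, and genes sharing tags with a member; some of these are not reported here. Other called genes of a list are named too, picked with their values in view. Alternatives were a pseudocount of 0.25, an expression limit of 5 CPM or none, TMM factors, median centring, edgeR 4.0.16 on the tags, no second factor and leaving out each state. Python 3.11.15, pandas 2.3.3, numpy 2.4.6, scipy 1.17.1 and matplotlib 3.10.9 were used. Promoter windows are from RefSeq.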

Additional observations from a re-analysis of the deposited data

Results flagged for a closer look

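The side difference of 2 integrin genes differed between 7 d and 1 m by a test of the difference itself (limma on the infarcted minus non-infarcted values). It was lower at 1 m by a log2 difference of -1.10 for Itgb5 and -0.76 for Itgb1. This fit has 1 residual degree of freedom and rests mostly on the spread of other genes. The LEV ratio of Spp1 on the infarcted side was 1.5 at 7 d and 0.681 at 1 m, opposite in direction with 1 library each, and the difference between these ratios was not tested.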

How the results depend on the processing

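With 1 library a group, single-library ratios compare libraries and not conditions, and leaving out a library leaves no residual degrees of freedom in the time and LEV fits, so this was not run there. Lower levels, those of Cd44 and Itgb3, carry wide counting intervals. Of 71 alternatives for the members by side 61 were counted as unchanged, as were 65 of 65 for the infarcted side against naive. The same held for 63 of 64 for the other side against naive, 38 of 43 over time, 41 of 41 for LEV and 29 of 29 for time on the side difference. Where a member was tested, unchanged means the same direction and side of the threshold. For the untested Spp1 and Cd44 differences it means the same direction and a shift below the SD between states or pairs. That rule is looser, and the single-pair values of Spp1 over time meet it by construction. So do the other expression limits and the fits without the block or the second factor, which leave these mean differences as they were. The counts of unchanged alternatives therefore include values that could not change. The labels give no replicate numbers. Without state as a block the side fit called 245 genes, beside 1136 with it. The number of members past the threshold by side, 3 with the block, 1 without the block and 1 to 4 on leaving out a state, includes Spp1 and Cd44, which were chosen by these values, so it is a description and no test.

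Side calls were 732 at a mean CPM of at least 5 and 71 to 1288 on leaving out a state (71 without 1 m, 103 without 7 d, 161 without 7 d LEV). Against naive, 0 to 2 genes were called on the infarcted side (1 with all states), 0 to 1 on the other on leaving out a state, and 1 there with no expression limit (0 in the reported fit, 151 at an unadjusted p below 0.05, 0 by edgeR). Time calls on the infarcted side were 1547 without the second factor (2732 with it). LEV calls, 85 as reported, were 28 at a pseudocount of 0.25, 11 with no expression limit, 209 at a mean CPM of at least 5, 12 under median centring, 17 by edgeR and 0 with TMM factors or without the second factor. Calls for time on the side difference, 888 as reported, were 271 under median centring and 431 with TMM factors. The cause was not tested.

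Calls higher on the infarcted side were 88.7% of side calls, 69.1% under median centring and 74.8% with TMM factors. Those higher at 1 m were 31.6% of time calls and 46.5% under median centring. Of LEV calls 24.7% were higher, and 39.7% at a mean CPM of at least 5, 9.09% with no expression limit and 8.33% under median centring. Itgav by side (0.06, up to 0.103 on leaving out a state) reversed to -0.0047 under median centring and -0.0076 without 7 d LEV, and Spp1 on the non-infarcted side against naive (0.03, up to 0.072 on leaving out a state) to -0.057 without 2 m, none of them called. The log2 side difference of Spp1 ran from 2.63 to 3.84 on leaving out a state.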
